A study of Mus musculus with 48 samples.

Results

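The nuclear genes of respiratory complex I were followed in ribosome-bound RNA of astrocytes and of their perisynaptic processes. Members were the protein-coding genes whose symbol starts with Nduf followed by a, b, c, s or v and a number, with Ndufab1 added. The rule found 38 genes among the 47643 in the count files, and all 38 could be matched by Ensembl ID. Of these, 36 encode subunits of complex I, 7 of them core subunits and 29 accessory subunits. Ndufa4, now known as a subunit of complex IV (cytochrome c oxidase), and its relative Ndufa4l2 carry the name without being part of the enzyme, and their values are kept apart below. Ndufb1 was not analysed here.

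Complex I, the NADH:ubiquinone oxidoreductase of the inner mitochondrial membrane, takes electrons from NADH, passes them along a chain of iron-sulphur clusters to ubiquinone and pumps protons. Its matrix arm holds the N module, where NADH is oxidised, and the Q module, where ubiquinone is reduced, and its membrane arm has a proximal and a distal part that pump protons. The nuclear subunits are made on cytosolic ribosomes and imported, while the mt-Nd subunits are encoded and translated inside the mitochondrion. In astrocytes, which rely much on glycolysis, a large part of complex I is known to be free of respiratory supercomplexes, and mitochondria reach into fine processes next to synapses.

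The study used translating ribosome affinity purification (TRAP), in which an antibody to green fluorescent protein pulls down tagged ribosomes with their RNA. The mice carried the transgene Tg(Aldh1l1-eGFP/Rpl10a) JD130Htz, also written Aldh1l1:L10a-eGFP, which puts the tagged ribosomal protein under the promoter of Aldh1l1, an astrocyte gene. Tissue was dorsal hippocampus in every sample, and no other genotype, treatment, age or sex is given in the labels used here. The groups were the whole astrocyte (Astro) and the perisynaptic astrocytic processes (PAP), the thin branches that contact synapses. Each of 3 animals gave both compartments, each as 8 technical replicates, 48 samples in all, which were summed to 6 libraries. The comparison asks which RNAs on astrocyte ribosomes are more or less abundant in the processes than in the cell as a whole. Control pulldowns from mice without the transgene were not analysed here, so RNA carried along without a tagged ribosome has no measured background in these values.

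Astro libraries held 18707844 to 20293538 counts and PAP libraries 1829962 to 2980984. Levels are given as CPM, counts put on one scale by library total and TMM factors, and 3 counts correspond to 0.152 to 0.176 CPM in Astro and to 0.991 to 1.55 CPM in PAP. The 3 PAP libraries differed far more from each other than the 3 Astro libraries, with a biological coefficient of variation of 1.58 against 0.334 when each group was fitted alone. The 12 astrocyte markers were read in both compartments, and 11 of them had more than 3 counts in every PAP library; Fgfr3 had 0 counts in the PAP library of animal 1. Their summed level was 23960 to 32540 CPM in Astro, and 3722, 8640 and 14280 CPM in the PAP libraries of animals 1 to 3. Neuronal markers summed to 1227 to 1912 CPM in Astro and 559 to 1585 CPM in PAP, and oligodendrocyte markers to 831 to 914 and 612 to 1063 CPM. Microglial markers summed to 47.7 to 106 CPM in Astro and 44.0 to 219 CPM in PAP, where 4 of 10 were at 0 in every library, and endothelial and mural markers to 23.5 to 43.8 and 15.5 to 24.5 CPM, where 5 of 10 were at 0. Erythrocyte genes summed to 12.7 to 22.2 CPM in Astro and 2.64 to 456 CPM in PAP. Cytosolic ribosomal protein genes took 0.831 to 0.931% of the counts in Astro and 6.97 to 11.0% in PAP.

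The DNA just before the start of 4 members is shown because these genes stand for the patterns described below: Ndufv2 and Ndufs8 are core subunits called lower in PAP, Ndufa3 is a subunit with overlapping groups, and Ndufa11 carries a match to the letters of NRF1, a factor known to drive respiratory chain genes. Each run is the 250 bases before the RefSeq start on GRCm38.p6, read 5′ to 3′ on the gene's strand, and capitals mark motif matches. No base lies in a GENCODE exon of the same gene, while exons of other genes were not looked up.
Ndufv2, chr17:66101560-66101809, minus strand: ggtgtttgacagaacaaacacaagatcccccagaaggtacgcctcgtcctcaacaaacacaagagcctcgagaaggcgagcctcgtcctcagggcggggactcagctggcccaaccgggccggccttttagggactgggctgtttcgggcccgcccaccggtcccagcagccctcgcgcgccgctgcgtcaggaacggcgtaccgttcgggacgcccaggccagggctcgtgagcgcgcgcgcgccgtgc
Ndufs8, chr19:3912775-3913024, minus strand: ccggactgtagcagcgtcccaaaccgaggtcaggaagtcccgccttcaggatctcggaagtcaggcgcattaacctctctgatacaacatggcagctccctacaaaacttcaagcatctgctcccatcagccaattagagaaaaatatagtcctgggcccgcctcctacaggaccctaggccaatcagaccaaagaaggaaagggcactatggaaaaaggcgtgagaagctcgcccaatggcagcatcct
Ndufa3, chr7:3617123-3617372, plus strand: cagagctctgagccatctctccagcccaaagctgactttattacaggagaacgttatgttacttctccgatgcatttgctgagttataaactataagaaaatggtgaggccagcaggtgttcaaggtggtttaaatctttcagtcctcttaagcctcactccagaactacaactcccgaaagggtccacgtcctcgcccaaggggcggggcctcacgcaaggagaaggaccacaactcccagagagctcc
Ndufa11, chr17:56717512-56717761, plus strand: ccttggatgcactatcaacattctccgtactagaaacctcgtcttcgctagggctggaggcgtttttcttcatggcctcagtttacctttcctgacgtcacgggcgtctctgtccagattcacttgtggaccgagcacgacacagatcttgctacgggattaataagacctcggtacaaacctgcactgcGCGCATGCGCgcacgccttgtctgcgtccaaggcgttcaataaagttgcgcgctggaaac
Promoter windows were found in RefSeq for 32 of the 36 subunits. The NRF1 letters GCGCANGCG, searched on both strands, were in the window of 6 of them (18.8%) and in 5.9% of the 27025 genes with a window. In Ndufa11 a match on each strand overlaps the other, which gives the capital run. The 6 genes were Ndufa5, Ndufa8, Ndufa11, Ndufb4, Ndufs5 and Ndufs6, and their log2 fold changes in PAP against Astro ran from -1.83 for Ndufa8 to -0.04 for Ndufa5. The letters CCGGAAG of ETS-family factors were in 3 windows (Ndufb6, Ndufb7 and Ndufs3, 9.4% against 7.8% of all genes), and AAGATGGCG, the YY1 letters, in 0 of 32 (0.7% of all genes). Among the genes with NRF1 letters only Ndufa11, and among those with ETS letters only Ndufb6, had a window free of the gene's own GENCODE exons. Matches in the other windows can therefore lie in transcribed bases. A match describes the letters only.

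As a group, the complex I subunits were well represented in PAP ribosomes at a lower level than in Astro. Their summed level was 11780, 12960 and 11250 CPM in the Astro libraries of animals 1 to 3 and 5798, 7076 and 7589 CPM in the PAP libraries. The groups did not overlap, and the PAP library of animal 1 was the lowest, as it was for the astrocyte markers; the part of the marker level in this order was not tested. In shares, the 36 genes took 1.08 to 1.18% of the counts in Astro and 0.621 to 0.770% in PAP. The log2 ratio of the summed levels of all 38 genes was -1.07 in animal 1, -0.87 in animal 2 and -0.57 in animal 3 (mean -0.83 ± 0.25, SD, n = 3). CPM is a relative level, so less of these RNAs and more of others in PAP cannot be told apart.

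Gene by gene, all 38 members passed the filter on low counts, 5 were called lower in PAP by edgeR's quasi-likelihood test (adjusted p under 0.05) and 0 were called higher. The 5 were Ndufa8, Ndufs8, Ndufb10, Ndufb2 and Ndufv2. Of the 14618 genes tested, 15.4% were called lower and 5.92% higher, so the members' 5 of 38 lay near the background for lower calls. An unadjusted p under 0.05 was reached by 17 members, all of them with lower fitted values in PAP, as it was with that sign by 21.5% of all genes. The DESeq2 Wald test called 20 lower and 0 higher, where it called 23.6% of all genes lower. With the animal as a block, 0 of the 38 were called, and the adjusted p was 0.206 for each of the 5 genes; that fit called 0.0342% of all genes lower. An unadjusted p under 0.05 was reached there by 12 members, all lower, and by 17.9% of all genes with that sign. The calls depended on which library was left out. Without any single Astro library 0 members were called (115 to 140 of all genes, in either direction). Leaving out the PAP library of animal 1, 2 or 3 gave 8, 6 or 12 lower calls, each time including the same 5, while 4037 to 4586 of all genes were called.

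All 3 PAP values lay below all 3 Astro values for 26 of the 36 subunits and above them for 0. Among all genes tested, 35.1% had such a separation downwards and 10.9% upwards, and among the 2252 genes with an Astro mean of at least 100 CPM, a level that every subunit but Ndufb4 reached, 49.5% were separated downwards. The fitted log2 fold change was negative for 34 of the 36, and 31 were lower in PAP in each of the 3 animals, as were 40% of all genes. Their median log2 fold change was -0.85, against -0.53 over all tested genes, or -0.46 when genes at or under 3 counts in a compartment are placed at their bound. Against the 2252 abundant genes, whose median was -0.92, the members' median was slightly higher. The order of the medians of members and all genes turned in the fit with the animal as a block, where the members had -0.87 and all genes -1.63. With library totals alone in place of TMM factors both medians moved up, to -0.70 for the members and -0.37 for all genes. Of all 14618 genes tested, 8904 had a negative fitted log2 fold change.

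**Figure D1:**
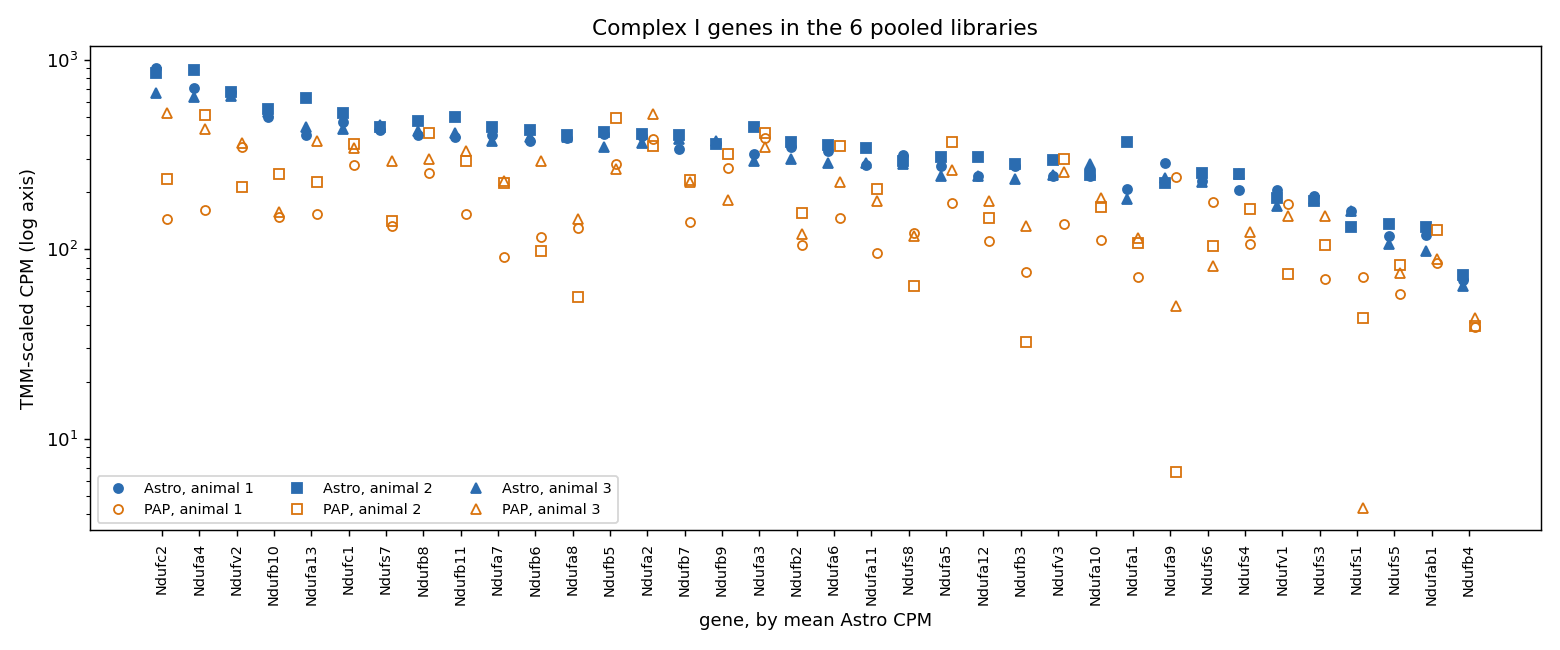
Level of 36 genes (35 complex I subunits and Ndufa4) in each of the 6 libraries, in TMM-scaled CPM on a log axis, ordered by the Astro mean; filled symbols are Astro, open symbols PAP, and the shape marks the animal. Most open symbols lie below the filled ones of the same gene, and single PAP libraries drop far below for Ndufa9 (6.70 CPM) and Ndufs1 (4.30 CPM).

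The N module, the tip of the matrix arm that takes electrons from NADH, had 9 members, a median log2 fold change of -0.86 and a range from -1.92 to 0.10. PAP lay below Astro without overlap for 6 of the 9, and 1 was called lower. That gene was Ndufv2 (chromosome 17, 66078638 to 66101559), a core subunit with an iron-sulphur cluster. Its level was 676, 672 and 644 CPM in Astro and 346, 213 and 363 CPM in PAP. Every PAP value was below every Astro value, and the log2 fold change was -1.11 ± 0.28 (SE, adjusted p = 0.0363; 0.206 with the animal as a block). Its adjusted p missed the threshold with library totals alone (log2 fold change -0.96, adjusted p = 0.0578), with libraries thinned to equal depth (-0.89, 0.0922) and with genes of a mean of at least 100 counts (-0.91, 0.0865), while the fold stayed near that reported, at -1.15 with the animal as a block.

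Ndufs1 (chromosome 1, 63143596 to 63176833), the largest core subunit and the bearer of several iron-sulphur clusters, had the lowest fitted log2 fold change of the 36. It read 159, 131 and 158 CPM in Astro and 71.4, 43.3 and 4.30 CPM in PAP. The PAP values were all below Astro but spread widely, as animal 3 had 13 counts where animals 1 and 2 had 140 and 84. The low reading was shared by the technical replicates of that library, which held 0 to 4 counts each, while those of animal 1 held 11 to 24. The log2 fold change was -1.92 ± 0.92 and did not pass the test (adjusted p = 0.227), but the value depended on the PAP library left out. It was -2.70 without that of animal 1 (adjusted p = 0.119), -2.05 without animal 2 (0.250) and -1.45 without animal 3 (0.0465), and the adjusted p ran from 0.0465 to 0.478 over all alternatives.

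Ndufv1, which binds NADH and the flavin that accepts its electrons, did not separate the compartments. It had 205, 187 and 169 CPM in Astro and 172, 73.7 and 149 CPM in PAP. Animal 2 was the lowest, the groups overlapped, and the log2 fold change was -0.51 ± 0.41 (adjusted p = 0.499). The 3 core subunits of this module, neighbours in the enzyme, thus had fitted log2 fold changes of -1.92, -1.11 and -0.51, whose difference from each other was not tested.

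Of the accessory subunits of the N module, Ndufa7 was among the 5 highest members per length in Astro. It had 399, 439 and 371 CPM in Astro and 90.8, 222 and 229 CPM in PAP, a log2 fold change of -1.16 ± 0.41 (adjusted p = 0.103; -0.88 and 0.0408 without the PAP library of animal 1). The PAP library of animal 1 lay lowest, and the groups did not overlap. Ndufs6, a zinc-binding subunit, Ndufa12 and Ndufs4, whose loss in mice gives a fatal encephalopathy, were also separated, with log2 fold changes of -0.96, -0.86 and -0.84 (adjusted p from 0.124 to 0.151). Ndufs6 passed the threshold without the PAP library of animal 1 (-1.39, adjusted p = 0.0282) and Ndufa12 without that of animal 3 (-1.11, adjusted p = 0.0448). Ndufv3 and Ndufa2 were not separated. Ndufa2, a subunit with a thioredoxin-like fold, had 394, 406 and 364 CPM in Astro and 382, 350 and 516 CPM in PAP, with animal 3 the highest of all 6 values. Its log2 fold change was 0.10 ± 0.26 (adjusted p = 0.861), and its sign turned when no filter on low counts was used (-0.07). Ndufv3 had 242, 294 and 245 CPM in Astro against 136, 301 and 256 CPM in PAP, where animal 1 alone was low (log2 fold change -0.17 ± 0.37, adjusted p = 0.825).

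The Q module, which hands electrons to ubiquinone, had 7 members, a median log2 fold change of -0.78 and a range from -1.55 to -0.04. PAP lay below Astro without overlap for 4 of the 7, and 1 was called lower. Ndufs8 (chromosome 19, 3908863 to 3912774), which carries iron-sulphur clusters on the way to ubiquinone, was the gene called. It had 315, 293 and 281 CPM in Astro and 121, 63.9 and 118 CPM in PAP. All PAP values were under the lowest Astro value, and the log2 fold change was -1.55 ± 0.36 (adjusted p = 0.0268; 0.206 with the animal as a block; 0.0532 with libraries thinned to equal depth).

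Ndufs7 and Ndufs3, also core subunits of the Q module, were lower in each animal without passing the test. Ndufs7, which holds the last iron-sulphur cluster before ubiquinone, had 425, 438 and 454 CPM in Astro and 132, 140 and 291 CPM in PAP (log2 fold change -1.23 ± 0.38, adjusted p = 0.0700). Animal 3 was the nearest to the Astro level; without its PAP library the log2 fold change was -1.76 (adjusted p = 0.0159; 0.00346 to 0.228 over all alternatives). Ndufs3, a structural neighbour, had 192, 179 and 185 CPM in Astro and 69.4, 106 and 149 CPM in PAP (-0.78 ± 0.39, adjusted p = 0.248). The PAP values of both genes stayed below Astro, with animal 3 the highest.

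Ndufa9, named for its spread after its values were seen, an accessory subunit at the joint of the matrix and membrane arms, had the widest spread of all members. Its level was 284, 223 and 237 CPM in Astro and 240, 6.70 and 49.9 CPM in PAP. The PAP library of animal 1 lay at the Astro level, and that of animal 2 was near the floor with 13 counts. Technical replicates kept to their library, with 49 to 68 counts in animal 1, 1 to 2 in animal 2 and 13 to 26 in animal 3. The log2 fold change of -1.33 ± 1.08 did not pass the test (adjusted p = 0.503) and rested on single libraries. It was -3.17 without the PAP library of animal 1 (adjusted p = 0.0618), -0.84 without that of animal 2 (0.426) and -2.42 with the animal as a block (0.245). Ndufa6 and Ndufa5 overlapped as well. Ndufa5 had 276, 308 and 244 CPM in Astro and 176, 367 and 260 CPM in PAP, with the highest value of the 6 in the PAP library of animal 2 (log2 fold change -0.04 ± 0.35, adjusted p = 0.956); its sign turned under several scalings and filters, for example to 0.11 with library totals alone and to 0.03 with DESeq2 size factors.

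The proximal membrane arm, next to the ubiquinone site, had 9 members, a median log2 fold change of -0.91 and a range from -1.83 to 0.12. For 8 of the 9 the PAP values lay below Astro without overlap, and 1 was called lower. Ndufa8 (chromosome 2, 36036326 to 36049406), a cysteine-motif protein of the intermembrane-space face, had 384, 400 and 390 CPM in Astro and 129, 56.2 and 144 CPM in PAP. The Astro values were almost equal and every PAP value was far below them. The log2 fold change was -1.83 ± 0.41 (adjusted p = 0.0247; 0.206 with the animal as a block), the lowest among the members called.

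Ndufc1 and Ndufc2, small membrane subunits, were among the most abundant members per length in Astro, Ndufc1 only with the shortest of its equally ranked transcripts. Ndufc2 had 903, 852 and 663 CPM in Astro and 144, 234 and 519 CPM in PAP (log2 fold change -1.43 ± 0.49, adjusted p = 0.0972). Its PAP values differed by animal, with animal 3 the highest; without that library the log2 fold change was -2.16 (adjusted p = 0.0189; 0.0125 to 0.289 over all alternatives). Ndufc1 had 467, 521 and 428 CPM in Astro and 279, 358 and 340 CPM in PAP, close to each other within each group (-0.54 ± 0.24, adjusted p = 0.201). Ndufa1, needed for assembly of the membrane arm and also named after its values were seen, had 209, 369 and 183 CPM in Astro and 70.9, 108 and 114 CPM in PAP (-1.37 ± 0.42, adjusted p = 0.0644). Ndufa13, also known as GRIM-19, Ndufa11, Ndufs5 and Ndufa10 had log2 fold changes of -0.96, -0.91, -0.74 and -0.73 (adjusted p from 0.158 to 0.280); Ndufa13 came to -1.43 without the PAP library of animal 3 (adjusted p = 0.0352).

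Ndufa3 was the one member of the proximal arm whose compartments overlapped. It had 318, 440 and 290 CPM in Astro and 387, 410 and 345 CPM in PAP. The log2 fold change was 0.12 ± 0.27 (adjusted p = 0.828), the highest fitted value of all members, and it came to -0.04 when no filter on low counts was used. Its 3 PAP libraries were close to each other, with an SD of 0.13 on the log2(CPM + 1) scale.

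The distal membrane arm, the far end of the proton pump, had 11 members, a median log2 fold change of -0.76 and a range from -1.72 to -0.17. PAP lay below Astro without overlap for 8, and 2 were called lower. Ndufb10 (chromosome 17, 24722060 to 24724478) had 497, 549 and 526 CPM in Astro and 148, 248 and 157 CPM in PAP (log2 fold change -1.51 ± 0.30, adjusted p = 0.0208; 0.206 with the animal as a block). Ndufb2 (chromosome 6, 39592574 to 39603382) had 344, 366 and 299 CPM in Astro and 105, 156 and 121 CPM in PAP (-1.40 ± 0.30, adjusted p = 0.0219; 0.206 with the animal as a block). Both were low in each PAP library, with animal 2 the highest of the 3.

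Ndufb3 had the third-lowest fitted log2 fold change of the members without being called. It had 274, 282 and 236 CPM in Astro and 75.5, 32.5 and 132 CPM in PAP (-1.72 ± 0.54, adjusted p = 0.0726). Its PAP values spread over a 4.06-fold range, and without the PAP library of animal 3 or 2 its log2 fold change was -2.35 or -1.41 and its adjusted p 0.0241 or 0.0482 (0.00359 to 0.243 over all alternatives). Ndufb8, among the 5 highest members per length in PAP, had 401, 476 and 419 CPM in Astro and 252, 409 and 299 CPM in PAP, where animal 2 reached the Astro range (-0.43 ± 0.28, adjusted p = 0.385). Ndufb5 had 407, 414 and 347 CPM in Astro and 280, 492 and 265 CPM in PAP, with animal 2 above all Astro values (-0.17 ± 0.33, adjusted p = 0.800). Ndufb4, chosen for naming after its values were seen, was the least variable member in PAP, with 38.8, 39.2 and 43.3 CPM against 68.4, 73.3 and 64.1 CPM in Astro (-0.76 ± 0.49, adjusted p = 0.377). Ndufb6, Ndufb7, Ndufb11 and Ndufb9 had log2 fold changes of -1.23, -0.91, -0.74 and -0.52 (adjusted p from 0.0897 to 0.317); without the PAP library of animal 3 Ndufb6 came to -1.95 (adjusted p = 0.0161; 0.0161 to 0.368 over all alternatives).

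Ndufab1, the mitochondrial acyl carrier protein that also serves fatty acid and lipoate synthesis, had 119, 131 and 97.8 CPM in Astro and 84.7, 127 and 88.9 CPM in PAP. The PAP values of animals 1 and 3 lay below the Astro range and that of animal 2 inside it, and the log2 fold change was -0.21 ± 0.39 (adjusted p = 0.797).

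**Figure D2:**
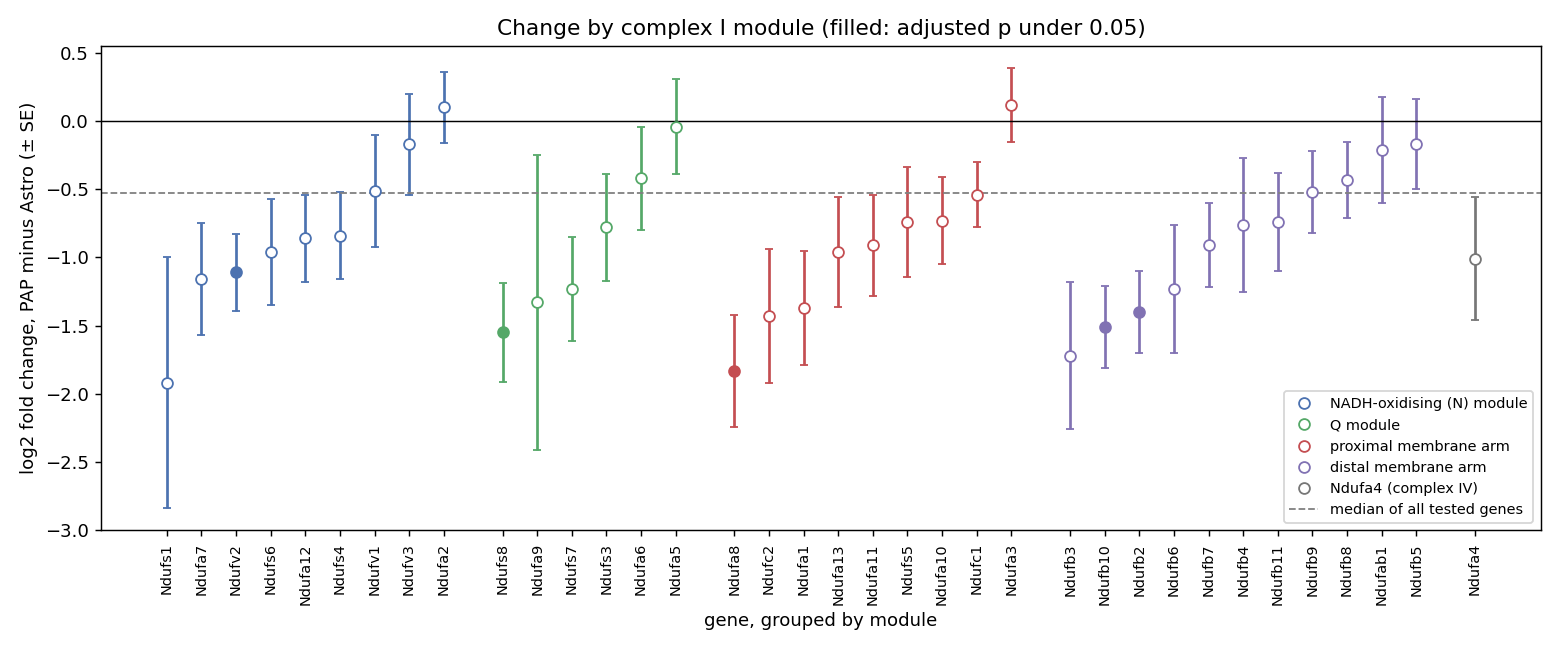
Fitted log2 fold change of PAP against Astro with its SE for 35 subunits by module and for Ndufa4, which is in complex IV; filled points have an adjusted p under 0.05 and the dashed line is the median of all tested genes (-0.53). Called genes occur in each of the 4 modules, and Ndufa9 and Ndufs1 have the widest bars.

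The core subunits as a list had a median log2 fold change of -1.11, with 7 of 7 lower in each animal, 6 of 7 without overlap and 2 called. The 29 accessory subunits had a median of -0.84, with 24 lower in each animal, 20 without overlap and 3 called. Of all genes tested, 40% were lower in each animal, 35.1% were lower without overlap and 15.4% were called lower. No module held more than 2 of the called genes, and a difference between modules or between core and accessory subunits was not tested.

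Length-scaled levels, in CPM per kilobase of mRNA, set members beside each other, with the shortest of the equally ranked transcripts as the length. In Astro the highest were Ndufa4 (1639), Ndufc1 (1499), Ndufc2 (1180), Ndufa7 (763) and Ndufb2 (739). In PAP they were Ndufc1 (1034), Ndufa4 (811), Ndufa3 (740), Ndufa2 (727) and Ndufb8 (471). The lowest of the 36 subunits in both was Ndufs1, with 57.8 CPM per kilobase in Astro and 15.3 in PAP, followed by Ndufb4 with 70.6 and 41.6. The order depends on the transcript taken for the 7 subunits whose equally ranked transcripts differ in length. With the longest one, an alternative added after seeing the data, Ndufc1 came to 378 CPM per kilobase in Astro and 261 in PAP and Ndufb2 to 77.0 and 29.1, so both left the highest 5. Ndufab1 came to 33.3 and 28.8, the lowest in Astro and the second-lowest in PAP. Ndufa4, Ndufc2 and Ndufa7 were then highest in Astro, and Ndufa3, Ndufa2 and Ndufa4 in PAP. Over the 36 genes, Spearman's rho between the compartments was 0.85 and Pearson's r 0.83 for these levels, which share each gene's length. For CPM without length scaling rho was 0.73 and r 0.65, and these values are descriptions only. By medians, the levels were 238 and 146 CPM per kilobase in the N module, 315 and 130 in the Q module, 553 and 233 in the proximal arm and 518 and 279 in the distal arm, Astro first.

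**Figure D3:**
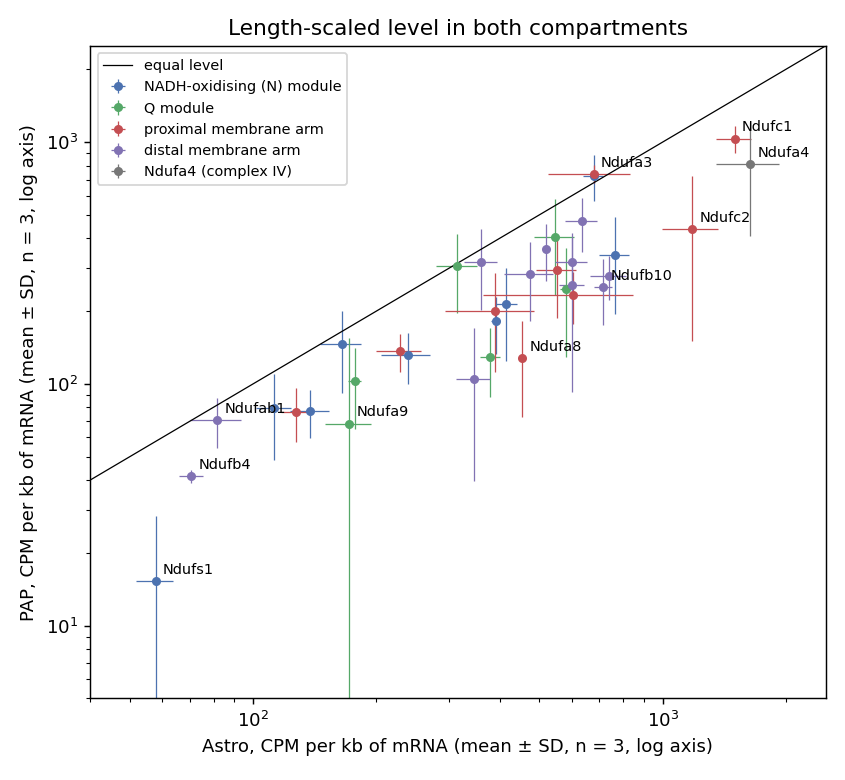
Mean length-scaled level of 35 subunits and Ndufa4 in Astro (horizontal) and PAP (vertical) in CPM per kilobase of mRNA, both log axes, with the SD over 3 animals as bars; the lower bar of Ndufa9, whose SD exceeds its mean, runs off the axis. Nearly all points lie under the line of equal level, and Ndufa3 and Ndufa2 lie just above it.

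The spread of the subunits between PAP libraries is given beside that of other genes. All 36 subunits had more than 3 counts in every PAP library, against 39.6% of all genes tested and 82.9% of the 2252 genes with an Astro mean of at least 100 CPM. The median SD of log2(CPM + 1) over the 3 PAP libraries was 0.50 for the subunits, 1.26 for all genes tested and 0.91 for the abundant genes. The other nuclear lists of the chain had medians like that of complex I, with 0.57 for complex II, 0.43 for complex III, 0.66 for complex IV and 0.46 for ATP synthase, and all their genes had more than 3 counts in every PAP library. An SD under 1 was found for 33 of 36 subunits (91.7%), 42.7% of all genes and 54.0% of the abundant ones. The exceptions were Ndufa9 (2.49), Ndufs1 (2.01) and Ndufb3 (1.00). In Astro the median SD was 0.14 for the subunits, 0.29 for all genes and 0.18 for the abundant ones. These shares describe the lists and were not tested.

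**Figure D4:**
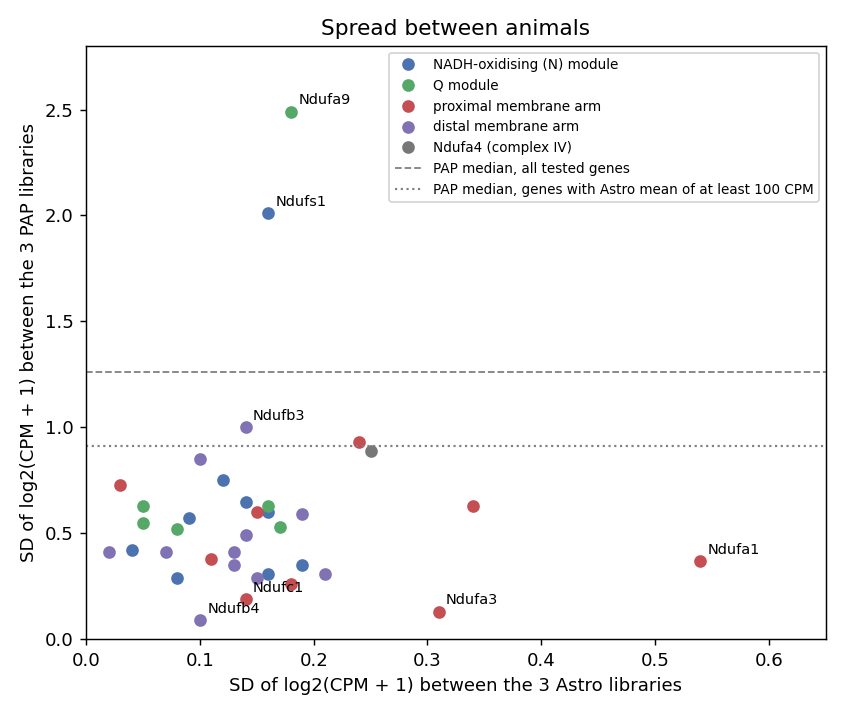
SD of log2(CPM + 1) over the 3 Astro libraries (horizontal) and over the 3 PAP libraries (vertical) for 35 subunits and Ndufa4; the lines are the PAP medians of all tested genes (1.26) and of genes with an Astro mean of at least 100 CPM (0.91). Most members lie below both lines, with Ndufa9 and Ndufs1 far above.

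The subunits differed in which animal was lowest. The PAP library of animal 1 was the lowest of the 3 for 22 of 36, that of animal 2 for 9 and that of animal 3 for 5. The highest was animal 2 or animal 3 for 15 each and animal 1 for 6. The median log2 difference between PAP and Astro of the same animal was -1.12, -0.93 and -0.57 in animals 1 to 3, against -1.05, -1.26 and -0.96 over all genes tested, so the subunits lay below that median in animal 1 and above it in animals 2 and 3. Across the 36 genes the CPM of pairs of PAP libraries had a Spearman's rho of 0.61 to 0.75 and that of pairs of Astro libraries 0.92 to 0.95.

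The subunit mRNAs are short. The principal mRNA of the 36 had a median length of 772 nucleotides (315 to 2590) and a median 3′ UTR of 117 nucleotides (40 to 968), against 2812 and 866 in the 12644 tested protein-coding genes. The fold changes among the 36 had no visible relation to mRNA length (Spearman's rho 0.02), coding length (-0.02), 3′ UTR length (0.07), GC content (-0.01) or the length-scaled Astro level (-0.13), as descriptions across genes. The spread in PAP had a rho of 0.24 with mRNA length, and Ndufs1 is both the longest and among the most variable. Exons of 17 of the 38 members overlap another gene in the annotation, most for Ndufb6 (39.0% of its exonic bases, with Smim27), Ndufa13 (30.0%, with Tssk6) and Ndufb9 (19.5%), and reads in the shared bases are uncertain. Smim27 and Tssk6 lie on the opposite strand, where counting without strand could mix them in, while the partner of Ndufb9 lies on the same strand, where strand would not separate them. Among the genes called lower only Ndufb2 shared exonic bases (7.9%), with 3 genes that lie on both strands. The 4 Nduf pseudogenes in the files had 0 to 16 counts in Astro and 0 to 3 in PAP.

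Ndufa4 and Ndufa4l2, which carry the name only, differed strongly in level. Ndufa4 had 708, 883 and 632 CPM in Astro and 161, 510 and 429 CPM in PAP, separated without overlap and lowest in animal 1 (log2 fold change -1.01 ± 0.45, adjusted p = 0.189). Ndufa4l2, known as a target of the hypoxia factor HIF, had 15, 12 and 23 counts in Astro and 3, 0 and 3 counts in PAP. Its PAP libraries were at or under the floor of 3 counts, and a difference between the compartments was not detectable at this depth.

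The assembly factors, which build complex I without staying in it, had 18 of 19 genes on the list tested, with 1 called lower and 0 higher (unadjusted p under 0.05 for 2 lower and 1 higher; DESeq2 called 2 in each direction). The median log2 fold change was -0.54, or -1.16 with the animal as a block. More than 3 counts in every PAP library were found for 11 of 18, and the median SD in PAP was 1.04; the list is also less abundant, with a summed level of 1050 to 1090 CPM in Astro and 678 to 1042 CPM in PAP. The gene called lower was Ndufaf1, a factor for the membrane arm, with 709, 687 and 784 counts in Astro and 0, 0 and 5 in PAP (adjusted p = 0.0447; 0.206 with the animal as a block). Acad9, Ecsit and Tmem126b, its known partners, were not called. Acad9 had 0, 1 and 151 counts in PAP and Tmem126b 193, 0 and 148, and Ecsit had 124, 88 and 104. Ndufaf8 lay above Astro in all PAP libraries, with 63.0, 81.2 and 72.3 CPM in Astro and 137, 151 and 205 CPM in PAP (log2 fold change 1.19, adjusted p = 0.0736; 0.294 with the animal as a block). Foxred1 was the other factor separated upwards, with 64.8, 44.7 and 62.8 CPM in Astro and 90.3, 121 and 88.2 CPM in PAP (0.80, adjusted p = 0.300), and 6 of the 18 were separated downwards.

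The mitochondrially encoded subunits of the same enzyme had fitted values of the other sign. Of 7 mt-Nd genes, 5 were tested and 0 were called in either direction by edgeR, with 0 at an unadjusted p under 0.05 and 1 called higher by DESeq2. Their summed level was 38.7, 444 and 141 CPM in Astro and 419, 999 and 664 CPM in PAP, higher in PAP in each animal, with the Astro library of animal 2 above the PAP library of animal 1. Fitted log2 fold changes ran from 1.47 for mt-Nd5 to 2.13 for mt-Nd2 (adjusted p from 0.207 to 0.360), and the Astro library of animal 1 was far below that of animal 2. These RNAs are translated on mitochondrial ribosomes, which lack the tagged protein, and how they came into the pulldown was not tested.

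Among the other nuclear lists of the chain, complex II (succinate dehydrogenase) had all 4 genes called lower, with a median log2 fold change of -1.63. Over all genes tested, 15.4% were called lower and 5.92% higher. Sdha had 517, 482 and 607 CPM in Astro and 142, 47.9 and 179 CPM in PAP (log2 fold change -2.12, adjusted p = 0.0294; 0.175 with the animal as a block). Sdhb, Sdhc and Sdhd had log2 fold changes of -1.57, -1.69 and -1.21 (adjusted p from 0.0208 to 0.0366; 0.206 with the block). Complex III had 0 of 9 called by edgeR and a median of -0.34, with 2 lower at an unadjusted p under 0.05 and 3 called lower by DESeq2. Complex IV had 1 of 10, Cox5a, called lower (log2 fold change -0.95, adjusted p = 0.0394; 0.206 with the block) and a median of -0.82, near that of complex I; DESeq2 called 4 lower.

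The ATP synthase, which uses the proton gradient that complex I helps build, had 1 of 15 genes called in each direction and a median of -0.43, where DESeq2 called 3 lower and 2 higher. Atp5a1, its catalytic-head alpha subunit, was called higher, with 799, 677 and 910 CPM in Astro and 2440, 1800 and 2020 CPM in PAP (log2 fold change 1.39, adjusted p = 0.0208; 0.166 with the animal as a block). Atp5f1, of the stalk, was called lower (-0.80, adjusted p = 0.0419; 0.228 with the block). No complex I subunit had a fitted change near that of Atp5a1. Differences between these lists were not tested.

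**Figure D5:**
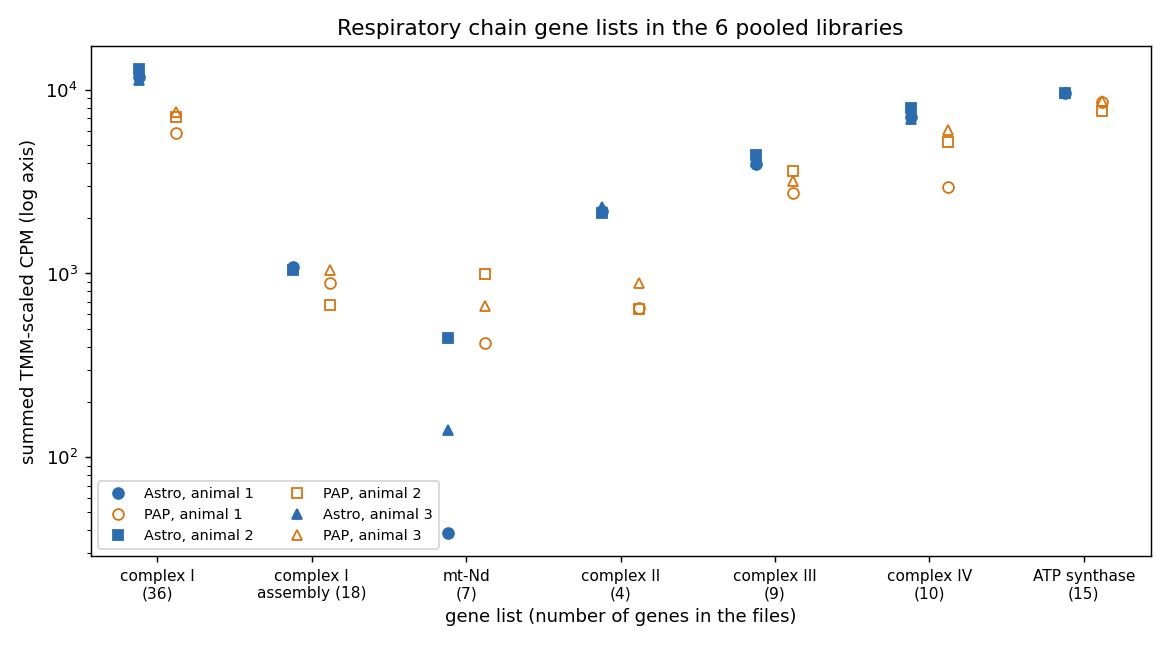
Summed level of each respiratory chain list in the 6 libraries, in TMM-scaled CPM on a log axis; filled symbols are Astro, open symbols PAP, the shape marks the animal, and the number of genes stands under each name. PAP lies below Astro for every nuclear list, by the least for the assembly factors (1042 against 1050 CPM at the nearest), and mostly above it for the mt-Nd genes.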

How the data were processed

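Ribosome-bound RNA of 6 animal and compartment pairs was measured in 48 samples. The authors deposited whole-number raw counts per Ensembl gene ID, per the file headers, with no scaling. Per the labels' protocols, lysates were pre-cleaned, and 10 ng of RNA was amplified with a SMART-Seq kit and made into libraries with Nextera XT. The submitters' processing notes name bcl2fastq 2.18.0.12, Trim Galore 0.4.1, STAR 2.5.2b, SAMtools, HTSeq 0.5.3 and mm10; the annotation release and strand setting are not given in the sources used here.

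The 8 technical replicates per library were summed (n = 3 animals). For genes kept by filterByExpr (minimum count 10), edgeR 4.0.16 (R 4.3.3) gave quasi-likelihood tests with TMM factors, Benjamini-Hochberg adjustment over all genes, threshold 0.05. The SE of a log2 fold change was taken as its size divided by the square root of F. Spread used log2(CPM + 1). Symbols and mRNA lengths came from GENCODE M21 on GRCm38, using the best-ranked transcript with the longest coding part, and the shortest mRNA among equals; coordinates are 1-based. Scripts were tested on simulated data. The lists and members were chosen with earlier results of these data known.

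Both compartments came from the same animals, which pairs the libraries by the labels; deviations of same-animal libraries from their group means correlated at 0.033, 0.018 and -0.027. Genes named were the core subunits, Ndufab1, Ndufa4, Ndufa4l2, every gene called, the 5 highest per length in each compartment and the 5 largest and smallest fold changes; others are named as summaries or as chosen after their values were seen. Alternatives were other scalings and filters, thinning, DESeq2 1.42.0, limma 3.58.1 voom with group weights and part of the technical replicates. Further ones were the animal block, leaving out each library without the block and, added after seeing the data, another transcript length. The values of 1 member are not reported here, though counts and medians over the members include it. Counts are reads after amplification, so floors cover counting error only.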

Additional observations from a re-analysis of the deposited data

How the results depend on the processing

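The number of complex I genes called higher in PAP was 0 under each of the 16 alternatives, by edgeR, DESeq2 and limma voom. The number called lower, 5 as reported, was 20 with the DESeq2 Wald test, 3 with libraries thinned to equal depth, 0 with the replicate block and 0 with voom and group weights, and ran from 0 to 12 when 1 library was left out. The replicate block is the animal, and voom's lowest adjusted p among members was 0.0715 where it called 3518 of all genes. The median of the members minus that of all tested genes, -0.32 as reported, was 0.02 with no filter on low counts, 0.76 with the replicate block and 0.77 with voom, and ran from -0.53 to 0.13 when 1 library was left out (0.13 without the PAP library of animal 1). The cause was not tested. The log2 ratio of summed levels stayed between -0.91 and -0.68.

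Fold changes near 0 turned sign. Ndufa2 came to -0.07 and Ndufa3 to -0.04 with no filter. Ndufa5 came to 0.03 with the DESeq2 Wald test and with DESeq2 size factors, 0.16 with thinned libraries, 0.11 with library totals alone and 0.15 with a mean of at least 100 counts. Ndufb5 came to 0.07 and Ndufv3 to 0.07 with thinned libraries, and to 0.03 and 0.02 with a mean of at least 100 counts. With 1 library left out, Ndufa2 ran from -0.15 to 0.17, Ndufa5 from -0.40 to 0.14 and Ndufv3 from -0.47 to 0.06. The 5 called genes stayed negative under all 16 alternatives.

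All values rest on 3 animals, and PAP libraries held far fewer counts than Astro libraries, so depth and compartment cannot be told apart at full depth.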
